A study of Mus musculus with 10 samples.

Results

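The skeletal muscle genes were 43 genes of the sarcomere, of calcium handling, of muscle energy supply and of the myogenic program, chosen by symbol from the 27179 genes measured in mouse femur RNA. They fell into 7 classes: 11 fast contractile, 7 slow contractile, 2 developmental myosin, 11 shared sarcomere and Z-disc, 5 calcium handling, 4 energy and oxygen, and 3 myogenic regulator genes. Bone RNA of pulverized femurs was depleted of ribosomal RNA and sequenced; the mice were 3 or 4 weeks old, and the labels name no treatment. The 5 mutant mice were Fgfr1+/N330I, with 1 Fgfr1 allele coding for the amino acid change N330I, and the 5 wild-type (WT) mice were their littermates. By label the groups held 3 female mutants, 2 male mutants, 3 female WT and 2 male WT mice, each with 1 library. The sources used here do not give the strain, the age of each mouse or the way muscle was cleaned from the bones.

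Skeletal muscle fibres contract when thick filaments of myosin pull on thin filaments of actin, under the control of calcium that binds troponin. Fast and slow fibres use different genes for myosin, its light chains and the troponins, and fibres that are still developing carry embryonic and perinatal myosin chains that adult chains replace after birth. Femurs carry attached muscle in life. The values below are DESeq2-normalized counts, the authors' counts divided by a size factor for each library. In bulk RNA, a smaller number of muscle fibres and less muscle RNA per fibre cannot be told apart.

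Muscle RNA was a trace in every library. The 43 genes together had 3508, 9298 and 21214 normalized counts in female mutants and 2291 and 12663 in labelled male mutants, against 2311, 3762 and 1914 in female WT and 5688 and 7164 in labelled male WT mice. Female mutant 3 was highest and female WT 3 lowest, and the mutant and WT libraries overlapped. Set against all counts but those of Rn45s, the ribosomal RNA precursor, these sums averaged 0.0387% ± 0.0309 in mutant libraries, against 0.0152% ± 0.0081 in WT libraries (SD, n = 5 each). Of those counts, 10 osteoblast markers took 1.60% to 6.84% and 7 macrophage markers 0.834% to 2.53%. In male WT 1 the macrophage sum, 764322 normalized counts, exceeded the osteoblast sum, 484537.

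A few libraries stood apart in depth or in kind. The estimated reads behind a library ran from 18.1 M to 30.6 M, and 1 read was worth 0.845 to 2.19 normalized counts. Female WT 3 had the lowest depth, with 28.8% of its counts on Rn45s against 0.149% to 0.428% elsewhere. Male WT 1 had few reads on long genes, as described at the end. The library labelled male mutant 2 went against its sex label, with 7972 normalized counts of Xist and 4 of Ddx3y, where Xist was at 14 to 48 and Ddx3y at 1558 to 1936 in the other labelled males. Labelled sex also coincided with the series of library names, so sex and library series cannot be told apart. Fgfr1 itself, whose gene counts do not separate the alleles, had 8856, 12560, 12990, 9132 and 12086 normalized counts in mutants and 11326, 8610, 8848, 3861 and 7767 in WT mice.

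The upstream sequences of the leading genes of 6 classes show the letters that muscle regulators are known to read. MyoD-family factors, among them the members Myod1 and Myog, are known to bind E-boxes (CANNTG), often in the form CAGCTG, and serum response factor binds CArG boxes. Each window is the 250 bases before the RefSeq start on GRCm38.p6 (mm10), 5′ to 3′ on the gene's strand, with E-boxes and CArG boxes in capitals. The genes shown have the highest level per kb of their class; the leading energy gene, Mb, has 3 listed windows and is left out.
Mylpf, fast light chain, chr7:127211358-127211607, plus strand: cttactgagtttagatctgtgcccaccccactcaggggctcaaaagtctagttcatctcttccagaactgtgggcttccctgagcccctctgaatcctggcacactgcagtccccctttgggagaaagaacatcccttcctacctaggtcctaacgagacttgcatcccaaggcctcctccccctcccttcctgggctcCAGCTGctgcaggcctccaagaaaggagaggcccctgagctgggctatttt
Tnnc1, slow troponin C, chr14:31208062-31208311, plus strand: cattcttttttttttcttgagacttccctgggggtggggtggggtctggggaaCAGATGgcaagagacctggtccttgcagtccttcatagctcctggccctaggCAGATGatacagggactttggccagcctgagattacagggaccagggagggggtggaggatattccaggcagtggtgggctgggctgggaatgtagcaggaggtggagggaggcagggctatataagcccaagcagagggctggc
Myh3, embryonic myosin, chr11:67078050-67078299, plus strand: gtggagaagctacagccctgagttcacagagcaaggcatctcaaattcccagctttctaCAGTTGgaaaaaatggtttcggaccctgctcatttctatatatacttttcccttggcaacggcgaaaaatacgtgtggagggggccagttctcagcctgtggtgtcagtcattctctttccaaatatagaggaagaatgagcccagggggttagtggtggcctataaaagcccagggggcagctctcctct
Acta1, skeletal actin, chr8:123894776-123895025, minus strand: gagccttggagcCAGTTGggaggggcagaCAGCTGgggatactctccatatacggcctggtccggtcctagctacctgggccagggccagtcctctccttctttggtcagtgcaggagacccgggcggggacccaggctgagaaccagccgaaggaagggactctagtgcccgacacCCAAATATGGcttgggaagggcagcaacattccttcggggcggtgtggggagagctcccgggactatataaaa
Casq1, calsequestrin, chr1:172219896-172220145, minus strand: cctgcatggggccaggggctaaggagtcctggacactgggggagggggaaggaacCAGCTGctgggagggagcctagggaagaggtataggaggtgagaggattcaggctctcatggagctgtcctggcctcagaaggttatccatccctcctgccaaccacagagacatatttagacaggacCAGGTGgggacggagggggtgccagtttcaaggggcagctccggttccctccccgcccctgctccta
Myog, myogenin, chr1:134289754-134290003, plus strand: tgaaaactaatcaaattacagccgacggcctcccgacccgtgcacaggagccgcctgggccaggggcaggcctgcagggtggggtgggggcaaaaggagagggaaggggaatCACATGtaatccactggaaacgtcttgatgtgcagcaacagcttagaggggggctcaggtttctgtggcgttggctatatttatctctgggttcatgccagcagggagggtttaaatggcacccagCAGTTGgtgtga

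Acta1 held a CArG box whose first base lay 73 bases before the start, and E-boxes 238 and 221 bases before it. Mylpf held 1 E-box, a CAGCTG at 51 bases, and Myog held E-boxes at 138 and 12 bases. Tnnc1 held E-boxes at 197 and 145 bases, Casq1 at 195 and 67, and Myh3 at 191. RefSeq windows were matched for 35 of the 43 genes, 42 windows in all. On either strand, CAGCTG was in 40.5% of the 42 windows and in 13% of the 32851 windows of all genes. CANNTG, which includes CAGCTG, was in 83.3% against 66.2%. A pattern with fixed ends and any 4 bases in its middle was in 7.14% against 3.2%. It only resembles the site of the regulator MEF2, so these shares do not count MEF2 sites. CArG boxes were in 11.9% of the members' windows and in 1.47% of all windows. Some genes have more than 1 window, which can overlap and hold the same site. CAGCTG was found in 15 of the 35 genes and CArG boxes in 4. These matches describe letters and not binding.

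Summed per kb of exon, the fast contractile genes were the highest class in each of the 10 libraries, led by the light chains Mylpf and Myl1. Mylpf, the regulatory light chain of fast fibres (chromosome 7, 127211608 to 127214287, mm10), had 170, 478 and 1059 normalized counts in female mutants and 156 and 779 in labelled male mutants, against 80, 155 and 86 in female WT and 391 and 435 in labelled male WT mice. Myl1, the essential light chain of fast fibres, had 205, 500 and 1144 in female mutants and 121 and 979 in labelled male mutants, against 108, 231 and 53 in female WT and 453 and 512 in labelled male WT mice. In both genes the highest values were in female mutant 3 and the library labelled male mutant 2, while male mutant 1 lay close to the female WT libraries. Per kb of exon, the means over 10 libraries were 502 normalized counts for Mylpf and 388 for Myl1.

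The fast troponins came next. Tnni2, the inhibitory subunit, averaged 316 normalized counts per kb, with 124, 214 and 647 normalized counts in female mutants and 106 and 280 in labelled male mutants, against 69, 124 and 72 in female WT and 275 and 200 in labelled male WT mice. Tnnt3, the subunit that binds tropomyosin, averaged 308 per kb, with 168, 427 and 1107 normalized counts in female mutants and 98 and 641 in labelled male mutants, against 117, 184 and 68 in female WT and 349 and 292 in labelled male WT mice. For both troponins the mutant and WT groups overlapped. Tnnc2, the calcium-binding subunit, ranged from 31 to 602 normalized counts in mutants and from 20 to 184 in WT mice. Actn3, the fast-fibre actinin of the Z-disc, ranged from 77 to 783 in mutants and from 81 to 213 in WT mice.

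Mybpc2, the fast myosin-binding protein C, was low, with 9 to 146 normalized counts in mutant libraries, against 4 to 31 in WT libraries. Myoz1, a Z-disc protein of fast fibres, varied least of the members tested, with 19 to 37 in mutant libraries, against 12 to 41 in WT libraries, and its highest library was male WT 1.

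Slow contractile genes split sharply by protein family. The slow troponins Tnnc1, Tnnt1 and Tnni1 were abundant, at 283, 251 and 188 normalized counts per kb averaged over 10 libraries. The slow myosin chain Myh7 and the slow light chains Myl2 and Myl3 averaged 1.97, 7.27 and 5.79 per kb. Tnnc1, the slow troponin C that heart muscle also uses, had 114, 219 and 464 normalized counts in female mutants and 105 and 329 in labelled male mutants, against 66, 126 and 97 in female WT and 272 and 200 in labelled male WT mice.

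Tnnt1, the slow troponin T, had 113, 305 and 702 normalized counts in female mutants and 51 and 476 in labelled male mutants, against 66, 126 and 31 in female WT and 231 and 244 in labelled male WT mice. Tnni1, the slow troponin I, had 81, 251 and 579 in female mutants and 76 and 365 in labelled male mutants, against 73, 131 and 55 in female WT and 256 and 223 in labelled male WT mice. Mybpc1, the slow myosin-binding protein C, had 44, 153 and 455 in female mutants and 19 and 212 in labelled male mutants, against 24, 59 and 9 in female WT and 80 and 133 in labelled male WT mice. All 3 genes were highest in female mutant 3 and next highest in the library labelled male mutant 2, as the fast light chains were.

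Myh7, the slow and cardiac myosin heavy chain, had 0, 16 and 55 normalized counts in female mutants and 0 and 16 in labelled male mutants, against 8, 10 and 7 in female WT and 4 and 3 in labelled male WT mice. A 0 allows up to 3 reads, 2.61 normalized counts in female mutant 1 and 2.87 in male mutant 1. Myl2 and Myl3, the regulatory and essential light chains of slow fibres and heart, reached 11 and 6 normalized counts in mutants and 10 and 15 in WT mice at most. All 3 slow genes fell below the filter of 10 normalized counts in at least 5 libraries and were not tested.

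**Figure D1:**
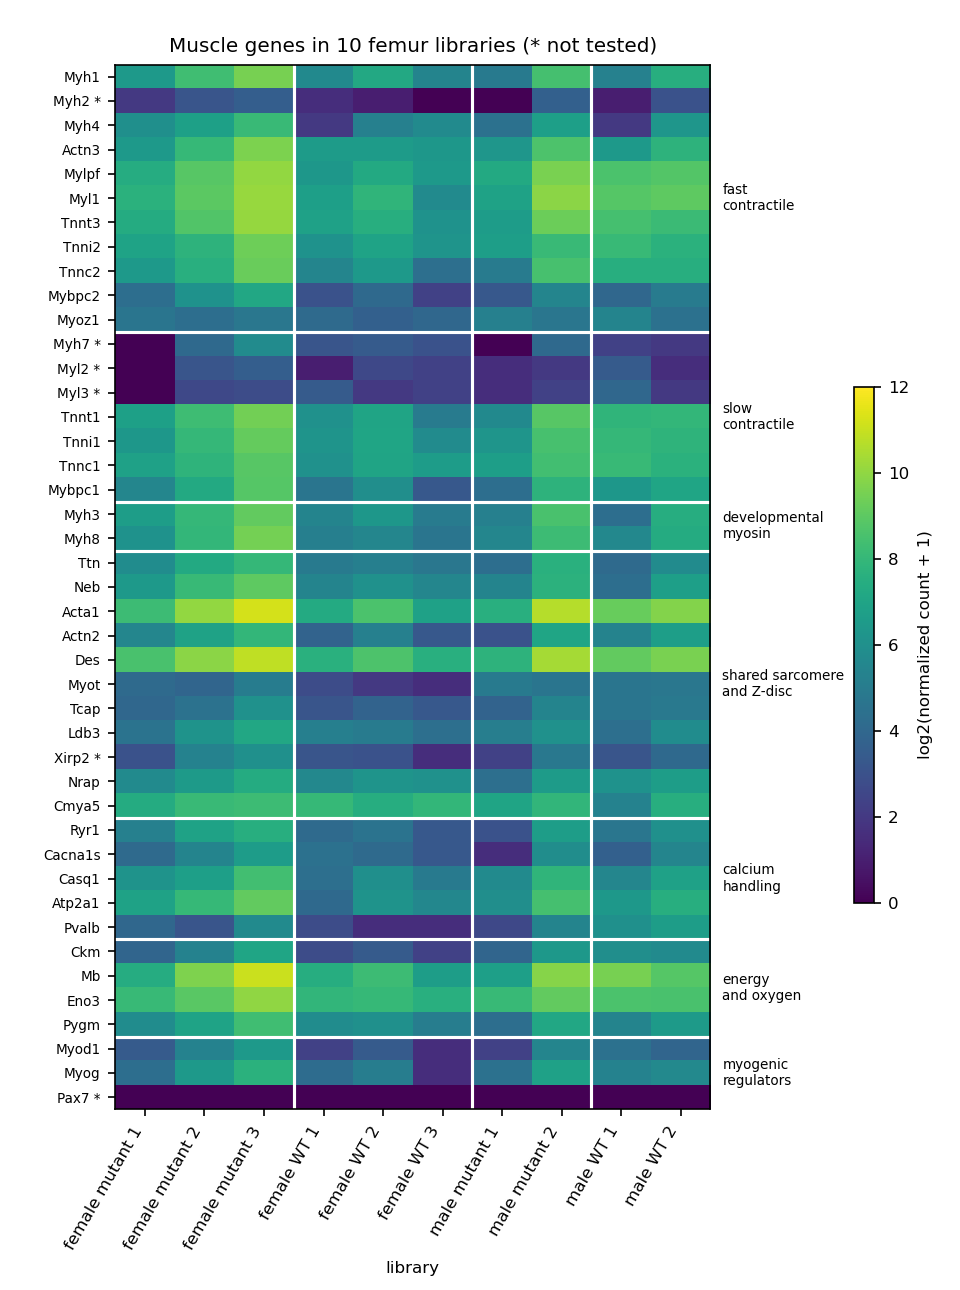
Heatmap of the 43 muscle genes (rows, grouped by class) in 10 libraries (columns, sex as labelled), coloured by log2(normalized count + 1); asterisks mark the 6 genes that were not tested. Female mutant 3 and the library labelled male mutant 2 are bright in most classes, and Myh2, Myh7, Myl2, Myl3 and Pax7 stay dark in most libraries.

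The ratios of slow to fast troponin T and I varied less than the levels. Per kb, Tnnt1 was 0.547 to 1.00 times Tnnt3 in the 10 libraries, a 1.83-fold spread, while Tnnt1 itself spanned 22.6-fold. Tnni1 was 0.391 to 0.781 times Tnni2, and below it in 10 of 10 libraries. Tnnc1 was 0.760 to 4.78 times Tnnc2, and above it in 8 of 10. Mybpc1 was 1.92 to 4.86 times Mybpc2 in 10 of 10 libraries. In female WT 3, Mybpc2 was at 4 normalized counts, under the 6.58 that 3 reads are worth there. The slow heavy chain Myh7, in contrast, was at most 0.166 times the fast chain Myh1. These ratios describe levels in the same library and carry no test.

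Developmental myosin made up about as much of the heavy chain RNA as adult fast myosin. Myh3, the embryonic chain (chromosome 11, 67078300 to 67102291, mm10), had 102, 252 and 552 normalized counts in female mutants and 37 and 375 in labelled male mutants, against 42, 80 and 31 in female WT and 19 and 176 in labelled male WT mice. Myh8, the perinatal chain (chromosome 11, 67277124 to 67308634, mm10), had 69, 244 and 728 in female mutants and 45 and 298 in labelled male mutants, against 35, 45 and 24 in female WT and 48 and 165 in labelled male WT mice. In females every mutant library was above every WT library for both chains, and among labelled males the groups overlapped. Their means were nearly equal, 27.8 normalized counts per kb for Myh3 and 27.7 for Myh8.

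The adult fast chains differed more among themselves. Myh1 had 89, 318 and 740 normalized counts in female mutants and 29 and 355 in labelled male mutants, against 50, 151 and 42 in female WT and 38 and 185 in labelled male WT mice. Myh4, the chain of the fastest fibres, had 61, 111 and 277 in female mutants and 21 and 110 in labelled male mutants, against 3, 36 and 53 in female WT and 3 and 77 in labelled male WT mice. Myh2 reached 12 normalized counts in mutant libraries, against 7 in WT libraries at most, and was not tested. Myh4 was 0.0600 to 1.26 times Myh1 per kb, above it only in female WT 3. The low end rests on 3 normalized counts of Myh4 in female WT 1, where 3 reads are worth 2.60.

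Myh3 and Myh8 together made up 55.6% ± 4.1 of the per-kb sum of 6 heavy chains (Myh1, Myh2, Myh3, Myh4, Myh7 and Myh8) in mutant libraries, against 48.5% ± 11 in WT libraries (SD, n = 5 each). The range was 52.1% to 61.9% in mutant libraries, against 34.9% to 59.0% in WT libraries, so the groups overlapped. Myh1 took 22.1% to 46.8%, Myh4 2.15% to 33.9%, Myh2 at most 1.42% and Myh7 at most 5.71%. The chains summed to as few as 113 normalized counts in male WT 1 and 132 in male mutant 1, against 2363 in female mutant 3, so the shares of the low libraries are the least precise. The heavy chains are related genes and neighbours on chromosome 11 (Myh7 lies on chromosome 14). How any reads shared between them were counted is not given in the sources used here, so the split between chains is uncertain.

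**Figure D2:**
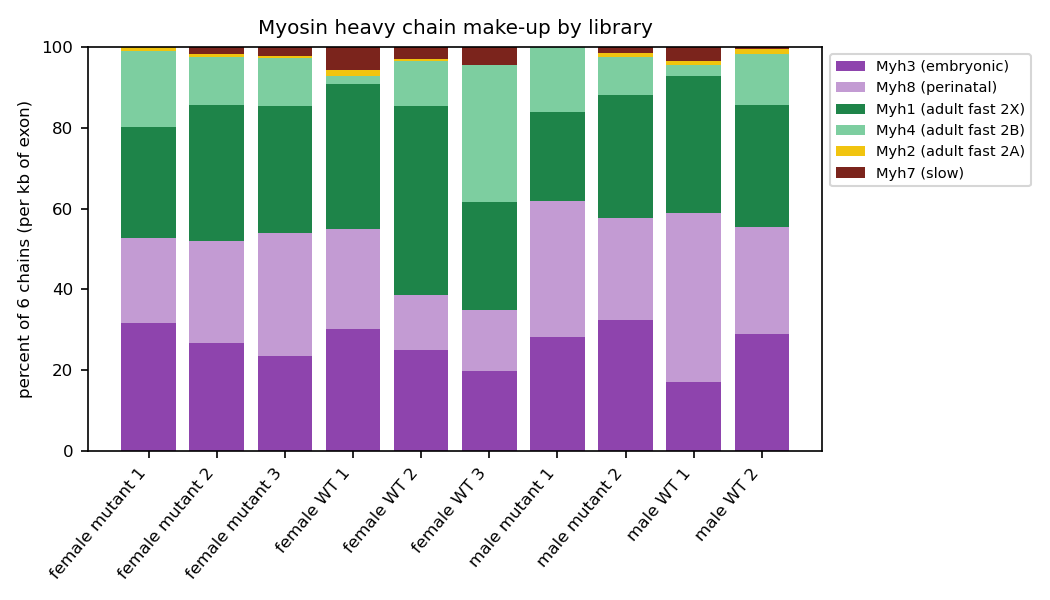
Share of each of 6 myosin heavy chains (stacked bars, percent of their sum per kb of exon, linear axis from 0) in each library. Myh3 and Myh8 together take 34.9% to 61.9%, and Myh7 and Myh2 are thin bands or missing.

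Other genes with developmental and adult forms were read in the same way, chosen after their values were seen. Chrng, the fetal subunit of the muscle acetylcholine receptor, summed to 317 normalized counts over the 10 libraries, and Chrne, the adult subunit that replaces it, to 13. Chrng had 14, 45 and 111 in female mutants and 8 and 58 in labelled male mutants, against 4, 20 and 7 in female WT and 10 and 40 in labelled male WT mice. Myl4, the embryonic and atrial light chain, was 0.482 to 1.97 times Myl1 per kb. Tnnt2, the troponin T of heart and of developing muscle, was 0.241 to 0.498 times Tnnt3. Actc1, the actin of heart and of developing muscle, was 0.0299 to 0.103 times Acta1.

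Among genes shared by all fibres, actin and desmin dominated. Acta1, skeletal alpha-actin (chromosome 8, 123891767 to 123894736, mm10), was the highest member at 536 normalized counts per kb, with 296, 1067 and 2369 normalized counts in female mutants and 191 and 1633 in labelled male mutants, against 161, 390 and 116 in female WT and 587 and 867 in labelled male WT mice. Des, the intermediate filament desmin, averaged 318 per kb, with 377, 977 and 1826 normalized counts in female mutants and 213 and 1332 in labelled male mutants, against 195, 404 and 191 in female WT and 546 and 773 in labelled male WT mice. Desmin is also made by smooth muscle, whose 8 marker genes summed to 3702 normalized counts in female mutant 1 at the lowest and 26935 in male WT 1 at the highest. Des was 0.514 to 1.10 times Acta1 per kb.

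Tcap, the titin cap of the Z-disc, had 15, 22 and 66 normalized counts in female mutants and 13 and 41 in labelled male mutants, against 8, 13 and 9 in female WT and 24 and 28 in labelled male WT mice. Actn2, the actinin of all fibres, had 45, 121 and 243 in female mutants and 7 and 132 in labelled male mutants, against 13, 36 and 9 in female WT and 40 and 104 in labelled male WT mice. For both genes every female mutant lay above every female WT mouse, and male mutant 1 lay below both labelled male WT mice.

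The giant sarcomere proteins were low per kb. Ttn, the titin spring, had 19 to 256 normalized counts in mutant libraries, against 17 to 55 in WT libraries, 0.810 per kb over its 104320 exon bases. Neb, the nebulin ruler of the thin filament, had 42 to 520 in mutant libraries, against 19 to 108 in WT libraries. Ldb3 and Nrap, which anchor actin and actinin, had 23 to 147 and 20 to 164 normalized counts in mutant libraries, against 20 to 56 and 48 to 102 in WT libraries. Myot, the Z-disc protein myotilin, had 14 to 32 in mutant libraries, against 2 to 26 in WT libraries. Xirp2, an actin-binding repeat protein, had 4 to 63 in mutant libraries, against 2 to 16 in WT libraries, and was not tested.

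Cmya5, a large protein of the Z-disc region, set 1 library apart. It had 168, 283 and 295 normalized counts in female mutants and 129 and 236 in labelled male mutants, against 265, 177 and 243 in female WT and 39 and 185 in labelled male WT mice. Male WT 1 was lowest by far, and the other 9 libraries lay within 129 to 295. Its exons overlap those of A630019I02Rik and Gm4814.

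**Figure D3:**
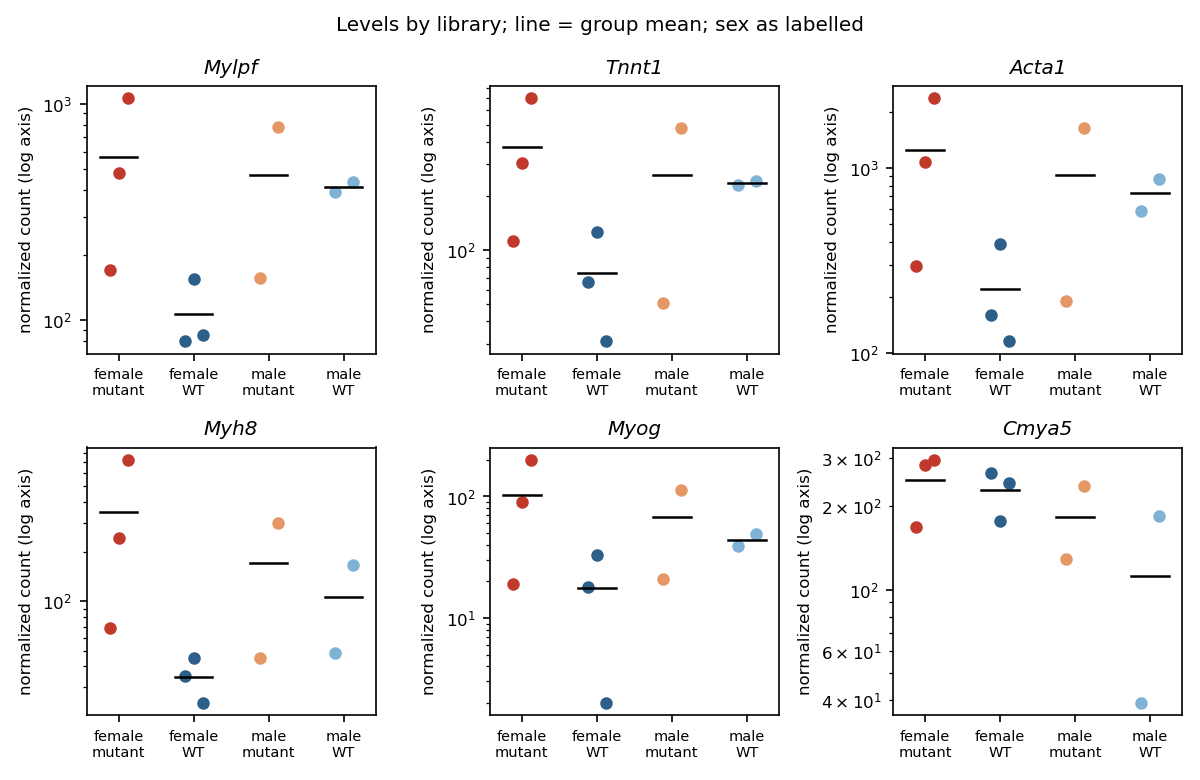
Normalized counts (log axes) of 6 muscle genes from different classes, with 1 point per library and a line at each group mean, by genotype and labelled sex. Mylpf, Tnnt1, Acta1, Myh8 and Myog are each highest in female mutant 3 and next highest in the library labelled male mutant 2, whereas Cmya5 lies within 129 to 295 apart from 39 in male WT 1.

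Calcium handling genes averaged from 3.82 normalized counts per kb for Ryr1 to 56.8 for Casq1. Casq1, calsequestrin, the calcium store of fast fibres, had 71, 107 and 333 normalized counts in female mutants and 53 and 232 in labelled male mutants, against 20, 61 and 29 in female WT and 44 and 114 in labelled male WT mice. Atp2a1, the calcium pump of fast fibres, had 118, 259 and 558 in female mutants and 60 and 348 in labelled male mutants, against 16, 71 and 46 in female WT and 83 and 181 in labelled male WT mice. Every female mutant was above every female WT mouse in both genes. Ryr1, the calcium release channel, had 7 to 183 in mutant libraries, against 9 to 65 in WT libraries, and Cacna1s, the voltage sensor that opens it, 2 to 99 in mutant libraries, against 9 to 43 in WT libraries.

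Pvalb, parvalbumin, a calcium buffer of fast fibres, had an order of libraries of its own. It had 15, 8 and 52 normalized counts in female mutants and 5 and 42 in labelled male mutants, against 6, 2 and 2 in female WT and 64 and 102 in labelled male WT mice. Female mutants lay above female WT mice and labelled male mutants below labelled male WT mice.

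Of the energy and oxygen genes, Mb and Eno3 were high and Ckm was low. Mb, myoglobin, averaged 473 normalized counts per kb, with 173, 828 and 2128 normalized counts in female mutants and 110 and 903 in labelled male mutants, against 180, 295 and 103 in female WT and 746 and 456 in labelled male WT mice. Eno3, the muscle enolase of glycolysis, averaged 268 per kb, with 270, 486 and 1041 normalized counts in female mutants and 273 and 546 in labelled male mutants, against 240, 264 and 191 in female WT and 385 and 369 in labelled male WT mice. For Eno3 every female mutant exceeded every female WT mouse, and for Mb female mutant 1 lay below female WT 1 and 2. Ckm, the muscle creatine kinase, had 14 to 133 in mutant libraries, against 4 to 60 in WT libraries, and was 0.0260 to 0.104 times Acta1 per kb. Pygm, the muscle glycogen phosphorylase, had 19 to 321 in mutant libraries, against 33 to 93 in WT libraries.

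The myogenic regulators were read in all but the stem cell factor. Myog, myogenin, which drives myoblasts into fusion and differentiation, had 19, 90 and 201 normalized counts in female mutants and 21 and 114 in labelled male mutants, against 18, 33 and 2 in female WT and 39 and 49 in labelled male WT mice. Myod1, which commits cells to the muscle lineage, had 10, 39 and 90 in female mutants and 4 and 43 in labelled male mutants, against 4, 10 and 2 in female WT and 21 and 14 in labelled male WT mice. In female WT 3 both were at 2, under the 6.58 normalized counts that 3 reads are worth there, and are not compared. In the other 9 libraries Myog exceeded Myod1 per kb by 2.33 to 6.58 times, with Myod1 at only 4 normalized counts in female WT 1 and male mutant 1. Pax7, the factor of muscle stem cells, was 0 in all 10 libraries, which allows up to 2.54 to 6.58 normalized counts per library (3 reads, counting error only). Tmem8c, the fusion protein myomaker, chosen after its values were seen, had 17 to 162 in mutant libraries, against 10 to 56 in WT libraries.

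Most members were highest in the same few libraries. Of the 43 genes, 37 passed the filter of 10 normalized counts in at least 5 of 10 libraries. Among these 37, female mutant 3 was highest for 35, the exceptions being Myoz1 (male WT 1) and Pvalb (male WT 2). The library labelled male mutant 2 was among the top 2 for 27 and female mutant 2 among the top 3 for 25. Female WT 3, the shallowest library, was lowest for 17, and female WT 1 and male mutant 1 for 7 each. The highest library exceeded the lowest by a median of 20.7-fold over the 37 members, with the smallest spread, 3.42-fold, for Myoz1. The widest, of Myog and Myh4, rest on lowest libraries at 2 and 3 normalized counts, near or under 3 reads, and are given no fold. The lowest values of Myod1, Myot, Mybpc2, Ckm, Pvalb and Cacna1s, at 2 to 4 normalized counts, also lay under 3 reads. The folds of all these genes are therefore imprecise, and they enter both the median and the 10-fold count below. The same median over 14231 tested genes above 0 in every library was 2.23-fold. A 10-fold spread was reached by 28 of the 37 members and by 6.38% of those genes.

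No member was called between mutant and WT mice over all 10 libraries. With limma on log2(normalized count + 1), labelled sex as covariate and Benjamini-Hochberg adjustment over 14362 genes, 0 of the 37 members and 0% of all genes passed an adjusted p of 0.05. At an unadjusted p under 0.05, 7 members were higher in mutants (Atp2a1, Casq1, Myh3, Myh8, Myot, Neb and Ttn) and 0 were lower, against 3.69% and 2.62% of all genes tested. The estimate was above 0 for 36 of the 37 members, the exception being Nrap, and for 48.2% of all genes. The median log2 difference was 1.09 over the members tested and -0.01 over all genes. Most members rose and fell with the same libraries, so counts of members are not independent observations of a genotype effect. The fold changes of low genes are understated by the added 1.

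The members' standard errors were large, a median of 0.72 on the log2 scale against 0.17 over all genes tested. By limma the developmental myosins gave log2 differences of 1.81 ± 0.80 for Myh3 (SE; adjusted p = 0.786) and 1.80 ± 0.78 for Myh8 (adjusted p = 0.783). For the calcium genes limma gave 1.47 ± 0.59 for Casq1 (adjusted p = 0.750) and 1.74 ± 0.72 for Atp2a1 (adjusted p = 0.762). Myot had the lowest adjusted p of any member by limma, 0.71, at 1.38 ± 0.48. Mylpf at 1.16 ± 0.64, Acta1 at 1.19 ± 0.79, Myog at 1.58 ± 0.89 and Mb at 0.80 ± 0.85 had estimates less than 2 times their standard errors. No member had every mutant library above every WT library, or every one below, orders that 0.494% and 0.334% of all genes tested had.

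By class, the median log2 difference was 1.08 over 10 fast, 0.87 over 4 slow, 1.80 over 2 developmental, 1.09 over 10 shared, 1.31 over 5 calcium handling, 0.78 over 4 energy and 1.52 over 2 regulator genes tested. The remaining named estimates lay between 0.63 ± 0.48 for Tnnc1 and 1.47 ± 0.86 for Myod1, with 1.09 ± 0.76 for Myl1, 1.01 ± 0.69 for Tnnt3 and 0.78 ± 0.54 for Tnni2. Tnnt1 gave 1.06 ± 0.79, Tnni1 0.68 ± 0.64 and Mybpc1 1.27 ± 0.94. Des gave 0.98 ± 0.63, Tcap 0.80 ± 0.51, Actn2 1.21 ± 0.96 and Eno3 0.71 ± 0.37. Leaving out female mutant 3 brought the members' median to 0.63, and leaving out male mutant 1 brought it to 1.80. Without male mutant 1, 30 members were higher at an unadjusted p under 0.05, against 431 of 14270 genes tested. At the adjusted threshold 0 members passed. The count of 7 was 11 without female mutant 1 (489 of 14253 genes) and 10 without male WT 2 (922 of 14266). It was 1 to 4 without any other single library (407 to 552 genes). With the library labelled male mutant 2, male WT 1 and female WT 3 all left out, it was 2 (649 of 14029). With array weights, which give each library a weight by its fit, it was 24 (795 of 14362 genes, against 530 without weights). There too 0 members passed the adjusted threshold.

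Within females the estimates ran toward mutants in each of the 37 members tested, and none passed the threshold. They were above 0 for 37 of 37 members, against 49.6% of all genes, with a median log2 difference of 2.10, against -0.0015 over all genes. By limma 0 members and 0.0139% of all genes passed the adjusted threshold, while 25 members were higher at an unadjusted p under 0.05, against 2.03% of all genes, and 0 were lower, against 2.4%. Because most members rose and fell with the same libraries, the counts of members given here are not independent observations. All 3 female mutants lay above all 3 female WT mice for 17 of 37 members, against 6.77% of all genes, and below them for 0, against 7.16%. These 17 held both developmental myosins, 4 fast, 0 slow, 5 shared, 4 calcium handling and 2 energy genes. The estimates were 2.34 ± 1.05 for Myh3, 2.75 ± 0.94 for Myh8, 2.74 ± 0.82 for Atp2a1 and 2.22 ± 0.92 for Acta1 (SE, log2 scale). Leaving out single libraries changed the count of 25 to 3 for female mutant 3, against 140 of 14237 genes tested. It was 4 for female WT 3 (151 of 14278), 7 for female WT 1 (205 of 14252) and 9 for female mutant 2 (233 of 14258). It was 23 for female WT 2 (329 of 14279) and 31 for female mutant 1 (230 of 14253). The median was 1.65 with the library labelled male mutant 2, male WT 1 and female WT 3 all left out.

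Among labelled males the estimates lay on both sides of 0, and their direction depended on which library was left out. They were above 0 for 15 of 37 members, against 49.9% of all genes, with a median of -0.24, against 0.00 over all genes, and by limma 0 members and 0% of all genes were called. At an unadjusted p under 0.05, 0 members were higher, against 4.42% of all genes, and 0 lower, against 3.89%. Both labelled male mutants lay above both labelled male WT mice for 0 members, against 13.1% of all genes, and below for 1, Pvalb, against 13.7%. The estimates were 1.01 ± 1.29 for Myh3, 0.24 ± 1.00 for Atp2a1 and -0.35 ± 1.13 for Acta1. With 2 mice on each side, of which 1 library goes against its label, the median was 1.02 without male mutant 1, -1.29 without the library labelled male mutant 2, -0.46 without male WT 1 and -0.02 without male WT 2. With the library labelled male mutant 2, male WT 1 and female WT 3 all left out, it was -1.63 over 36 members, from 1 labelled male library on each side. Each fit without a single labelled male library also leaves 1 library on 1 side.

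The difference between labelled males and females in the genotype effect was not called for any member. By limma 0 members and 0% of all genes passed, and 3 members (Pvalb, Myot and Ckm) were lower at an unadjusted p under 0.05, against 1.47% of all genes, and 0 were higher, against 2.45%. Estimates were below 0 for 36 of 37 members and above 0 for 1, against 49.4% of all genes above 0. Their median was -2.17, against -0.0065 over all genes. Pvalb had the largest, -4.66 ± 1.36 (limma adjusted p = 0.801), from -2.35 ± 1.05 in labelled males and 2.31 ± 0.86 in females. The count of 3 was 21 without female mutant 1, against 143 of 14253 genes tested, and 5 without female WT 2, against 232 of 14279. It was 1 to 2 without any other single female library, against 119 to 158 genes. Fits without a labelled male library leave 1 sample in a group, so only their medians are given. With any single library left out, the median lay between -3.46 and -0.91.

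**Figure D4:**
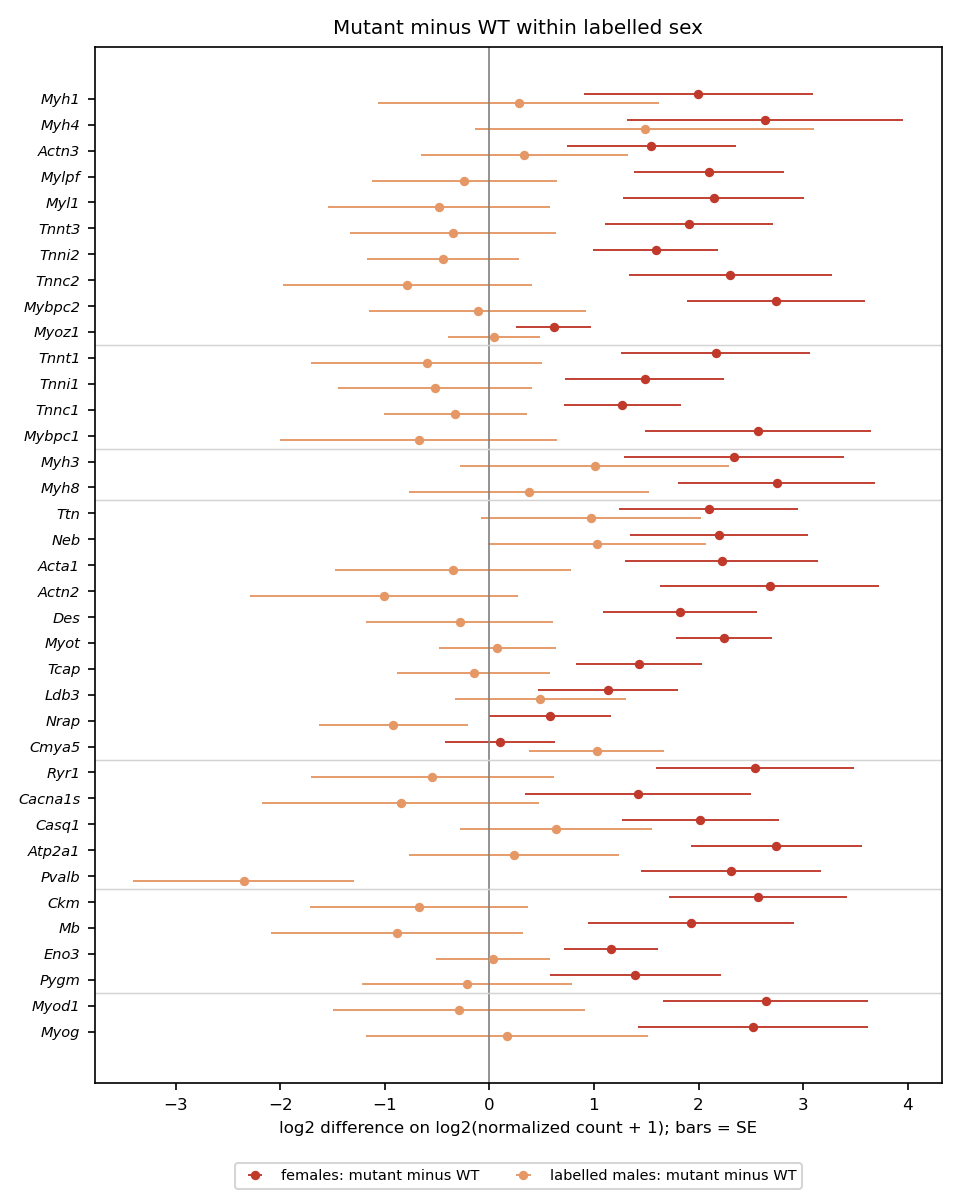
Log2 difference, mutant minus WT, of the 37 muscle genes tested, in females and in labelled males (points; bars are SE of the limma fit; grey lines part the classes). All 37 points for females lie right of 0, with a median of 2.10, and 15 of 37 for labelled males do.

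Labelled sex, across genotypes, was called for 0 of 37 members by limma, against 20.1% of all genes. At an unadjusted p under 0.05, 2 members (Myot and Myoz1) were higher in labelled males, against 19.6% of all genes. Lower ones numbered 0, against 19.6% of all genes. Myot, at 1.49 ± 0.49, had a limma adjusted p of 0.0562. The members' median for labelled sex was 0.34, and it lay between -0.01 (without male WT 2) and 1.01 (without male mutant 1) with single libraries left out. Without male mutant 1, 9 members were higher in labelled males at an unadjusted p under 0.05, against 2310 of 14270 genes tested. Leaving out the library labelled male mutant 2, male WT 1 and female WT 3 together gave a median of -0.42.

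A wider list of 82 symbols of other muscle genes, 81 of them in the table, covered the triad, muscle metabolism, and regulators and the nerve junction. The absent symbol, Mymk, is another name of Tmem8c, which is in the table. By limma 0 of 66 tested and 0% of all genes passed for genotype. Estimates were above 0 for 48, against 48.2% of all genes. At an unadjusted p under 0.05, 8 were higher and 1 lower, against 3.69% and 2.62% of all genes. Their median log2 difference was 0.65, against -0.01 over all genes. Without female mutant 3, 1 was higher, against 410 of 14237 genes tested, and the median was 0.24. Without the library labelled male mutant 2, 3 were higher (496 of 14264 genes) and the median was 0.28. Without male mutant 1, 27 were higher (431 of 14270 genes) and the median was 0.95. With the library labelled male mutant 2, male WT 1 and female WT 3 all left out, 2 were higher (649 of 14029) and the median was 0.31. It was 0.84 over 43 other sarcomere and triad genes, -0.06 over 10 metabolism genes and 0.12 over 13 regulator and junction genes. For labelled sex, where limma called 20.1% of all genes (1528 of 14362 as lower in labelled males), 2 of the wider list passed as lower, Mef2d at -0.59 ± 0.15 (limma adjusted p = 0.0264) and Stac3 at -1.28 ± 0.35 (limma adjusted p = 0.0344).

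The 4 highest of the wider list per kb were the tropomyosins Tpm1, Tpm3 and Tpm2 and the calcium pump Atp2a2, genes that many cell types besides muscle use. Tpm1 averaged 9434 ± 2137 normalized counts in mutant libraries, against 10825 ± 3080 in WT libraries, and Tpm2 2824 ± 952 in mutant libraries, against 3333 ± 1265 in WT libraries (SD, n = 5 each). Tpm3 averaged 6099 ± 197 in mutant libraries, against 6871 ± 975 in WT libraries, and Atp2a2 9349 ± 1100 in mutant libraries, against 8346 ± 1929 in WT libraries. The log2 differences were -0.18 ± 0.24 for Tpm1, -0.25 ± 0.29 for Tpm2, -0.16 ± 0.10 for Tpm3 and 0.19 ± 0.16 for Atp2a2 (SE), and none passed by limma.

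Markers of other tissues around or within a femur were read beside the members. Heart markers summed to 17 to 67 normalized counts per library over 7 genes, with Myh6 at 0 to 3, Myl7 at 0 in 9 of 10 libraries and Nppa at 0 in 8. The most abundant heart marker was Tnni3, at 14 to 51 in mutant libraries, against 11 to 44 in WT libraries. Red cell markers summed to 8, 7 and 14 normalized counts in female mutants and 7 and 6 in labelled male mutants. They summed to 24, 28 and 52 in female WT and 74 and 45 in labelled male WT mice. Every mutant sum lay below every WT sum, an order that 0.334% of single genes tested had. Over 6 genes, the mutant sums rest on few reads. Neutrophil markers summed to 18, 19 and 23 in female mutants and 119 and 21 in labelled male mutants, against 35, 43 and 33 in female WT and 68 and 42 in labelled male WT mice, lower in every mutant than in every WT mouse among females. Tendon markers, of the tissue that joins muscle to bone, summed to 22568, 51397 and 36746 in female mutants and 20994 and 35633 in labelled male mutants, against 76021, 55284 and 65071 in female WT and 12882 and 24991 in labelled male WT mice. In females the tendon sum was lower in every mutant than in every WT mouse. Osteoclast markers summed to 93505, 66191 and 60056 in female mutants and 332728 and 99389 in labelled male mutants, against 54218, 35455 and 30890 in female WT and 44919 and 98603 in labelled male WT mice, higher in every mutant than in every WT mouse of the same labelled sex. Sums of the other lists (osteoblast, cartilage, endothelial, smooth muscle, heart, fat, nerve sheath and macrophage) overlapped between mutant and WT mice in females. Fat and nerve sheath sums were lower in both labelled male mutants than in both labelled male WT mice. Of single genes tested, 6.77% had every female mutant above every female WT mouse and 7.16% below. In labelled males these shares were 13.1% and 13.7%. The part of cleaning or of other tissue in the muscle differences was not tested.

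Exon length set male WT 1 apart within the muscle genes. Against male WT 2, its 11 members with 4000 exon bases or more had a median log2 difference of -1.76, from -4.29 to -0.56, all 11 below 0. The 15 members under 1500 bases had a median of 0.00, with 7 below and 7 above 0, from -0.66 to 0.93. Both limits were chosen after the values were seen. Myh3 and Myh4, at 5992 and 6016 exon bases, had 19 and 3 normalized counts in male WT 1 and 176 and 77 in male WT 2, while Tnnc1, at 703 bases, had 272 and 200. The log2 deviation of male WT 1 changed by -1.99 per log10 of exon bases over the members and by -1.80 over all genes tested, against -0.39 to 0.69 over the members in the other libraries. The 6 myosin heavy chains lie close in length, at 5992 to 6149 exon bases.

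**Figure D5:**
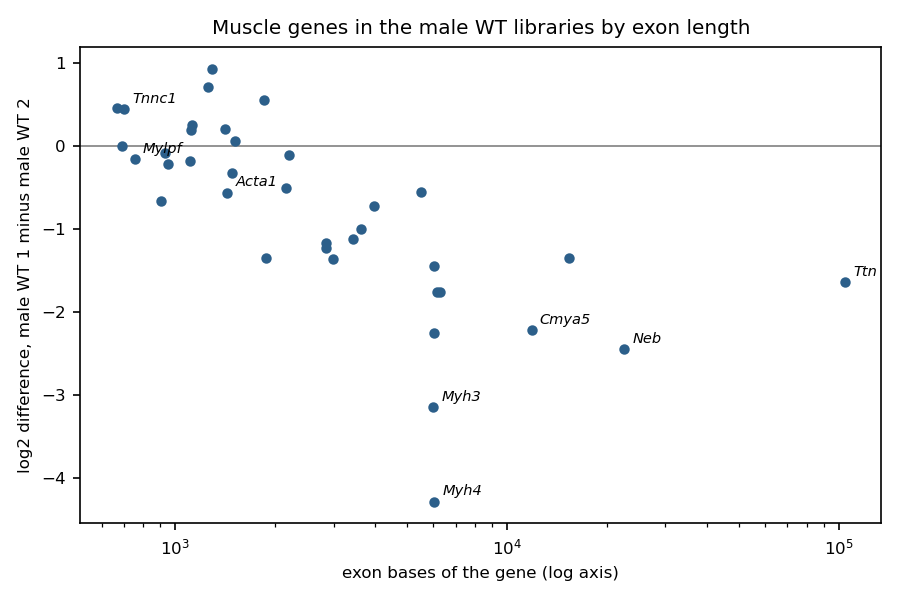
Log2 difference between male WT 1 and male WT 2 for the 37 muscle genes tested, against the exon bases of each gene (log axis), with 1 point per gene and 8 genes named. Genes under 1500 bases lie around 0, and the 11 genes of 4000 bases or more all lie below it, with Myh4 lowest at -4.29.

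Several members share exon positions with other genes, and the strand setting of the counting is not given in the sources used here. These were Myh7 (Mhrt), Myh8 (a gene without a symbol), Neb (4930573O16Rik), Nrap (Habp2), Cmya5, Atp2a1 (Rabep2), Ckm (A930016O22Rik) and Mb (Apol6). Reads there may belong to either gene.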

How the data were processed

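Per the labels' protocols, TRIzol RNA of pulverized femurs was sequenced by Illumina after ribosomal RNA depletion. The submitters' processing notes name STAR 2.5.2b, DESeq2 1.14.1 and the mouse build mm10. Each deposited value is a score: per the file headers and the values, the authors scaled gene counts by size factors of DESeq2 and wrote them as whole numbers. Because of the rounding, no count test was run. Sample titles gave the groups, labelled sex and replicate number. What 1 read is worth was estimated from the whole numbers that each library skips or repeats among values up to 150. No libraries of a group were copies, with at most 1.12% of values equal.

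A gene was tested where at least 5 libraries reached 10 normalized counts (14362 genes). In R 4.3.3, limma 3.58.1 fitted log2(value + 1), using its trend and robust options and Benjamini-Hochberg adjustment over all genes tested. Labelled sex was a covariate for genotype, and genotype for sex. Effects within labelled sex and their difference used the means of the 4 groups. The fit was tested on simulated data. Levels were compared between genes per kb of exon, from the coordinates in the table. The labels do not say more of the mice than that each gave a library, so p-values measure the spread between these libraries.

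The members, classes, lists and tests were chosen with earlier results of these data known. Full values were given for the members with the highest mean level per kb (4 of the fast, slow and shared classes, 2 of the others, 3 regulators), any member called, the 4 highest other muscle genes, Fgfr1, Xist, Ddx3y and Rn45s; any other gene was chosen after its values were seen. Alternatives were pseudocounts of 0.5 and 5, quantile normalization, equal totals outside Rn45s, array weights, filtering by a mean of 50 or not at all, omission of the sex covariate, a replicate block, counts not divided by length, shares with Rn45s, and fits without single libraries or those that stand apart. Promoter windows came from RefSeq on GRCm38.p6.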

Additional observations from a re-analysis of the deposited data

Results flagged for a closer look

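Of 46 groups of 5 libraries examined, 0 had a library whose gap to the nearest of the others exceeded 0.71 of the group's range, Dixon's 95% limit for 5 samples. The groups were the mutant or WT libraries for 20 named members, the members' share of counts and the myosin shares of Myh4 and of Myh3 with Myh8. Other members were not examined, among them Cmya5, at 39 in male WT 1 and 177 to 265 in the other WT libraries. The genotype effect did not pass as different between labelled males and females for any member.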

How the results depend on the processing

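No member was called for genotype in all mice or in females under any of the alternatives run, and the named members kept their direction under each of them. The members' median log2 difference for genotype, 1.09, ranged from 0.63 to 1.80 with single libraries left out and from 0.65 (with the libraries labelled male mutant 2, male WT 1 and female WT 3 all left out) to 1.57 (array weights) otherwise. With array weights 11 genes of all those tested were called for genotype, none of them a member; the cause was not tested. The count of 7 members higher at an unadjusted p under 0.05 was 24 with array weights, against 795 of 14362 genes tested. The count of 3 between the sexes was 0 with array weights (71 of 14362 genes lower) or a filter at a mean of 50 (177 of 12429). It was 6 with quantile normalization (248 of 14362). Leaving out single libraries gave 0 to 1 members called in labelled males, 0 to 1 for the difference between the sexes and 0 to 1 for labelled sex. The 1 member in labelled males and between the sexes was Cmya5 (2.13, limma adjusted p = 0.0137, and 2.03, limma adjusted p = 0.0436, without male WT 2, which leaves male WT 1 alone, assumed to vary like the other groups). In that fit 4362 genes were called in labelled males. For labelled sex, 1 member was called with quantile normalization (Myot), against 2995 of 14362 genes, and 2 with array weights (Myot and Pvalb), against 3959. With single libraries left out, Myot was called without female mutant 3 (1658 of 14237 genes) or the library labelled male mutant 2 (3362 of 14264). Pvalb was called without male mutant 1 (1316 of 14270). With the replicate number as a block, 0 members and 0 genes were called, and the members' median stayed at 1.09. Whether the numbers pair the samples is not known. Correlations between same-numbered libraries, as deviations from group means, ran from -0.32 to 0.22. With 2 libraries in each male group the 2 male values are equal by construction, so these correlations cannot settle it. Equal totals outside Rn45s moved the median of all genes to 0.08. Not dividing by length gave 52.3% for Myh3 and Myh8 over the 10 libraries, against 52.1%, and shares with Rn45s gave 0.0386% in mutants and 0.0148% in WT mice. Depth limits genes near 3 reads, above all in female WT 3.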
